A study of Mus musculus with 4 samples.

Results

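The genes described here are 20 cytosolic aminoacyl-tRNA synthetase genes and 15 genes of the amino acid stress response that is run by the transcription factor ATF4. They were taken by name from the deposited table of log2 expression values, through probe sets that the platform annotation pairs with 1 gene symbol. Of the 35 genes 34 were measured, among 18193 genes in all, and 1, Dars, had no such probe set and was not analysed here. Each gene was read from its brightest probe set, judged by the mean of all 4 arrays. Mars is listed below under its newer symbol, Mars1.

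RNA came from T29, a cell line from a thymic lymphoma of the mouse, measured in bulk on Affymetrix arrays. Per the sample titles, 2 samples had been treated with DMSO, the solvent, and 2 with a gamma-secretase inhibitor (GSI). The labels name the inhibitor as MRK003 and give 5 mM for 36 h in one text that all 4 samples carry, a dose whose unit could not be checked. The line is a single line of 1 tumour type, and the sources used here give neither its genotype nor its strain. Nothing says whether the replicates came from different cultures, so the p-values cover only how far these 4 samples scatter, and that scatter may be technical.

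Aminoacyl-tRNA synthetases load each amino acid onto its tRNA and so supply every ribosome of the cell. When an amino acid runs short or unfolded protein builds up, kinases phosphorylate the initiation factor eIF2, most translation slows, and the ATF4 message is translated better. ATF4 then raises genes for amino acid uptake, for serine, asparagine and cysteine synthesis and for many synthetases, often through a C/EBP-ATF response element near the gene's start. In T cells these genes also follow growth signals, and MYC is known to drive several of them. Gamma-secretase releases the intracellular part of Notch, which is itself known to drive Myc in T lineage cells.

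The response element is shown for 4 stress genes and 2 synthetase genes, because these genes share its letters and differ in how they read on the arrays. Each line is a stretch of 60 bases of the RefSeq promoter (build GRCm38.p6), read 5′ to 3′ on the strand of the gene. Capitals mark matches to TGATGNAA, the core of the element, or to its reverse complement. Slc7a11 lies at chr3:50443637-50443696 (minus strand), Asns at chr6:7693199-7693258 (minus strand), Chac1 at chr2:119351023-119351082 (plus strand) and Trib3 at chr2:152344013-152344072 (minus strand). Yars lies at chr4:129189880-129189939 (plus strand) and Iars at chr13:49682111-49682170 (plus strand).
Slc7a11: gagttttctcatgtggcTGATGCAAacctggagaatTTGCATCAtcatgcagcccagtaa
Asns: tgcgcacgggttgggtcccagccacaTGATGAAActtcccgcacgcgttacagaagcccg
Chac1: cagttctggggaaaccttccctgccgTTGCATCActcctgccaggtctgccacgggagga
Trib3: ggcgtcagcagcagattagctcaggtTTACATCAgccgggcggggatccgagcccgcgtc
Yars: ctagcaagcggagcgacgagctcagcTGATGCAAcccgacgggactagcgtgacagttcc
Iars: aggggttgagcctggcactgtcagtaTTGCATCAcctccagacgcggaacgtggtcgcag
The Slc7a11 stretch holds the core 2 times, in opposite orientations, 66 and 47 bases before the start. The Yars, Iars and Trib3 matches lie 4, 8 and 15 bases after the start.

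The arrays had median log2 values of 4.86 to 4.89. Of 12 measured T lineage markers 10 lay at or above 4.88, the median of all probe sets, which is used here as the limit for dim genes, on the DMSO and on the GSI arrays. Cd2 and Cd5 lay below it. The list medians per array were 10.11 to 10.50 for T lineage markers and 4.09 to 4.80 for B cell, myeloid, stromal and erythroid markers. Of 8 stromal and epithelial markers 5 were dim, Col1a1, Col1a2 and Col3a1 among them. Pdgfrb fell from 8.69 to 7.40 and Pecam1 rose from 6.92 to 7.56 (limma, adjusted p = 0.00475 and 0.0186), and the summed linear level of the 8 was 624 to 677 with DMSO and 471 to 478 with GSI. Among the T lineage markers 4 rose and 1 fell, and their summed linear level was 25704 to 26226 with DMSO and 27425 to 27459 with GSI. The part of these shifts in the results was not tested. The Notch targets Hes1 (from 8.72 to 6.46) and Dtx1 (from 9.49 to 5.96) fell with GSI, and Myc fell from 10.76 to 10.13 (limma, adjusted p = 0.00101, 0.000534 and 0.0390). Myc lost its call in the test of every probe set (adjusted p = 0.0719), with the replicate block (0.102) and when any 1 array was left out (0.122 to 0.271). The last also held for Hes1 (0.0563 to 0.0733). Dtx1 lost it without GSI replicate 1 (0.0563) and without GSI replicate 2 (0.0608). Over all genes 2.56% were called higher and 1.56% lower, a call being an adjusted p under 0.05. With the replicate block 1.19% of all genes were called. With any 1 array left out nearly every gene lost its call, so that loss, here and below, is not particular to a gene.

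The comparison of GSI with DMSO asks which transcripts change when gamma-secretase is blocked. Among the synthetases the differences were small and mostly downward: 17 of 19 had a lower mean with GSI, against 53% of all genes, and the median log2 difference was -0.26, against -0.012 over all genes. No synthetase passed limma (0 of 19, against 4.12% of all genes called), with 8 lower and 1 higher at an unadjusted p under 0.05, where all genes gave 10.7% lower and 10.8% higher. In 16 synthetases both GSI arrays lay below both DMSO arrays, which held for 27.7% of all genes. In 1 both lay above, against 23.7% of all genes, and in 2 the groups overlapped. All 19 lay at or above the limit for dim genes. Of the 5098 genes at least as bright as the dimmest synthetase, 1947 lay lower on both GSI arrays and 1699 higher. At an unadjusted p under 0.05, 850 of these were lower and 822 higher. Because RNA was measured in bulk, fewer cells with a transcript and less of it per cell cannot be told apart. Other settings gave more calls. Leaving out dim genes, 6 synthetases passed (5 lower, 1 higher), where 14.4% of the genes kept were called. A limma prior fitted robustly with an intensity trend gave 8 (7 lower, 1 higher), where 10.7% of all genes were called. Centring each array on its median gave 1, Wars, with 5.62% of all genes called.

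Wars, which charges tryptophan tRNA, read 8.85 and 8.79 with DMSO and 8.42 and 8.43 with GSI. The arrays of each group lay close together and the groups were apart, with a log2 difference of -0.39 (SE 0.084; limma, adjusted p = 0.0635). Lars, for leucine, read 10.41 and 10.54 with DMSO and 10.09 and 10.08 with GSI, a difference of -0.39 (SE 0.090; limma, adjusted p = 0.0794). Both GSI arrays were below the lower DMSO array. Yars, for tyrosine, read 9.15 and 9.16 with DMSO and 8.80 and 8.76 with GSI, and its difference of -0.37 had a 95% interval of -0.58 to -0.17 (limma, adjusted p = 0.0694). Rars, for arginine, read 10.88 and 10.83 with DMSO and 10.45 and 10.52 with GSI, and Kars, for lysine, 11.06 and 11.02 with DMSO and 10.65 and 10.75 with GSI. In both genes the groups were apart by more than their own arrays differed. Their log2 differences were -0.37 and -0.34 (limma, adjusted p = 0.0763 and 0.0969).

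The next synthetases in order of difference were Gars for glycine (-0.30), Mars1 for methionine (-0.29) and Iars for isoleucine (-0.27). Farsa, the alpha chain for phenylalanine, differed by -0.26, Hars for histidine by -0.26 and Cars for cysteine by -0.24, all on the log2 scale. Gars read 10.79 and 10.91 with DMSO and 10.61 and 10.49 with GSI, and Hars 11.15 and 10.87 with DMSO and 10.70 and 10.80 with GSI. The Hars groups were apart, though its own DMSO arrays differed by -0.28 (replicate 2 minus replicate 1), as much as the groups did. Tars for threonine (-0.20), Vars for valine (-0.18), Farsb, the beta chain for phenylalanine (-0.16), Nars for asparagine (-0.15) and the glutamate and proline enzyme Eprs (-0.13) were lower by less. Their adjusted p-values ran from 0.266 to 0.505 (limma). Aars for alanine (-0.057) and Sars for serine (0.071) had overlapping groups, with 95% intervals of -0.34 to 0.23 and -0.17 to 0.31.

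Qars, for glutamine, was the only synthetase of the 19 higher on both GSI arrays. It read 10.13 and 10.27 with DMSO and 10.65 and 10.64 with GSI, so that both GSI arrays lay above both DMSO arrays. The log2 difference was 0.44 (SE 0.092, 95% interval 0.22 to 0.67; limma, adjusted p = 0.0597), a level 1.36-fold higher. The size depended on the probe set, since the next brightest differed by 0.22 and the others by 0.032 and -0.10, and the mean over its 4 probe sets differed by 0.15 (limma, adjusted p = 0.389). Qars was the 1 higher synthetase under both settings with more calls (adjusted p = 0.0257 without dim genes and 0.00648 with the trended prior).

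**Figure D1:**
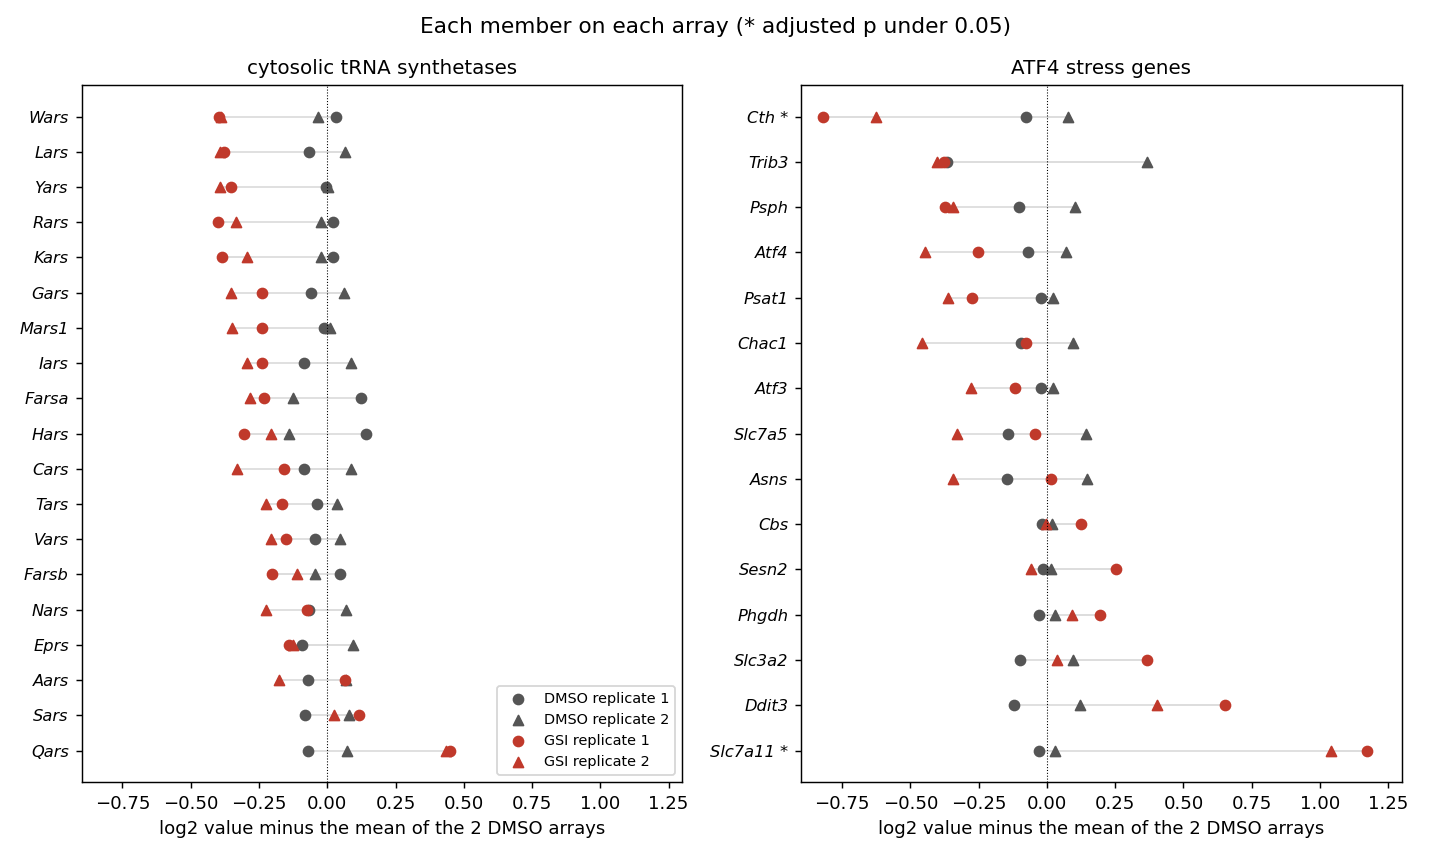
Log2 value of each gene on each array minus the mean of its 2 DMSO arrays (x axis), for 19 cytosolic tRNA synthetases (left) and 15 ATF4 stress genes (right), sorted by difference; circles are replicate 1, triangles replicate 2, grey DMSO and red GSI, and an asterisk marks a call. Red points lie to the left for most synthetases and to the right for Qars, while the stress genes run from Cth at -0.72 to Slc7a11 at 1.11.

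Grouping the synthetases by what is known of the enzymes gave medians from -0.29 to -0.20. Class I enzymes, built on a Rossmann fold, had a median log2 difference of -0.29 over 9 genes, and class II enzymes one of -0.20 over 9 genes; Eprs, which joins both classes, was left out. The 7 measured enzymes of the multisynthetase complex had a median of -0.29 and the 12 others -0.22. The 11 synthetases known as ATF4-induced had a median of -0.24, close to that of all 19. In each of these groups 0 genes passed limma, where 4.12% of all genes were called, so 0 in so few genes lies near that share. At an unadjusted p under 0.05, 6 of class I were lower, 2 of class II, 5 of the complex, 3 of the enzymes outside it and 5 of the ATF4-induced, where 10.7% of all genes were lower. Of the 5098 genes at least as bright as the dimmest synthetase, 850 were lower at that threshold. Qars was higher at that threshold in class I and in the complex. The differences between these groups were not tested.

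Of 4 genes for scaffolds of the multisynthetase complex and tRNA export, 3 read lower on both GSI arrays. Of the 4, 0 passed limma, where 4.12% of all genes were called. Lower on both GSI arrays were also 27.7% of all genes, and 1947 of the 5098 genes at least as bright as the dimmest synthetase. Aimp2, a scaffold of the multisynthetase complex, read 10.21 and 10.18 with DMSO and 9.68 and 9.82 with GSI, a log2 difference of -0.44 (limma, adjusted p = 0.0597). Xpot, which exports tRNA from the nucleus, differed by -0.41 (limma, adjusted p = 0.0880). Eef1e1, which also belongs to the complex, differed by -0.39 (limma, adjusted p = 0.103). Aimp1, another scaffold, had overlapping groups and a difference of -0.026 (limma, adjusted p = 0.917). At an unadjusted p under 0.05, 3 of the 4 were lower, against 10.7% of all genes and 850 of those 5098. The median of the 4 was -0.40. Among 16 measured mitochondrial synthetases 13 had lower means, against 53% of all genes, and the median was -0.16. Of the 16, 0 passed limma, against 4.12% of all genes. At an unadjusted p under 0.05, 3 were lower and 1 higher, against 10.7% and 10.8% of all genes. The 2 with the smallest p were Rars2 (-0.37; adjusted p = 0.0730) and Nars2 (-0.38; adjusted p = 0.109).

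The ATF4 stress genes were spread in both directions. Of 15, 1 rose and 1 fell (2.56% and 1.56% of all genes), 9 had lower means against 53% of all genes, and the median log2 difference was -0.19. At an unadjusted p under 0.05, 2 were higher and 4 lower, against 10.8% and 10.7% of all genes. In 6 genes both GSI arrays lay below both DMSO arrays and in 3 above, against 27.7% and 23.7% of all genes, and in 6 the groups overlapped. With the replicate number as a block 1 of the 15 passed, Slc7a11, where 1.19% of all genes were called.

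Slc7a11 encodes the light chain of the cystine and glutamate exchanger, which brings in cystine for glutathione. It read 7.05 and 7.11 with DMSO and 8.25 and 8.12 with GSI. Both GSI arrays were more than 1 above both DMSO arrays, and the gene rose 2.15-fold, a log2 difference of 1.11 (SE 0.092, 95% interval 0.88 to 1.33; limma, adjusted p = 0.00624). Its dimmer probe set read 6.83 and 6.94 with DMSO and 8.30 and 8.36 with GSI, a difference of 1.45 (adjusted p = 0.00717 in the limma test of every probe set). Slc7a11 was the only one of the 34 genes called in that test, where 1.39% of 45037 probe sets were called. With any 1 array left out its difference stayed between 1.04 and 1.17, and its adjusted p was 0.0912 to 0.126.

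The other transporter chains did not pass. Slc3a2, the heavy chain that pairs with Slc7a11 and with Slc7a5, read 10.49 and 10.68 with DMSO and 10.95 and 10.62 with GSI. Slc7a5, the light chain for large neutral amino acids, read 9.61 and 9.90 with DMSO and 9.71 and 9.42 with GSI. In both genes the groups overlapped. The 95% intervals of their log2 differences ran from -0.14 to 0.54 and from -0.54 to 0.17 (limma, adjusted p = 0.468 and 0.519).

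Cth encodes cystathionine gamma-lyase, the last enzyme of the path from methionine to cysteine. It read 7.99 and 8.14 with DMSO and 7.24 and 7.44 with GSI, and both GSI arrays were below both DMSO arrays. Cth fell 1.65-fold, a log2 difference of -0.72 (SE 0.11, 95% interval -0.99 to -0.45; limma, adjusted p = 0.0298). It lost the call in the test of every probe set (adjusted p = 0.0552), with the replicate block (0.0575) and with any 1 array left out (differences of -0.82 to -0.63, adjusted p = 0.127 to 0.260). Cbs, the enzyme before it, read 5.40 and 5.44 with DMSO and 5.55 and 5.42 with GSI on its brighter probe set, with overlapping groups and a difference of 0.062 (limma, adjusted p = 0.759). Its other probe set differed by -0.35 (adjusted p = 0.156 in the test of every probe set).

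The serine enzymes differed in sign. Psat1, the transaminase of serine synthesis, read 11.49 and 11.53 with DMSO and 11.23 and 11.15 with GSI. Psph, the phosphatase of the last step, read 10.21 and 10.42 with DMSO and 9.94 and 9.97 with GSI. Both were lower on both GSI arrays, by -0.32 and -0.36 on the log2 scale (limma, adjusted p = 0.109 and 0.120). The second Psat1 probe set had overlapping groups and differed by -0.038, and the mean of both differed by -0.18. Phgdh, the first enzyme, read 11.72 and 11.78 with DMSO and 11.94 and 11.84 with GSI, higher on both GSI arrays by 0.14 (limma, adjusted p = 0.419). Asns, which makes asparagine, read 10.73 and 11.02 with DMSO and 10.89 and 10.53 with GSI. Its groups overlapped, and the interval of its difference ran from -0.56 to 0.23 (limma, adjusted p = 0.622).

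Of the transcription factors, Atf4 read lower and Ddit3 higher, and neither passed. Atf4 itself read 11.54 and 11.68 with DMSO and 11.36 and 11.17 with GSI, a log2 difference of -0.35 (SE 0.11; limma, adjusted p = 0.139), while its activity is known to be set mainly at translation, which these arrays do not measure. Ddit3, the factor CHOP that ATF4 induces under lasting stress, read 7.78 and 8.02 with DMSO and 8.55 and 8.30 with GSI. Both GSI arrays of Ddit3 were above both DMSO arrays, with a difference of 0.53 (SE 0.13, 95% interval 0.21 to 0.85; limma, adjusted p = 0.0889). Ddit3 passed without dim genes, as the mean of its 2 probe sets (4.9% of all genes called) and with the trended prior (adjusted p = 0.0438, 0.0346 and 0.0242). Atf4 passed with the last of these (adjusted p = 0.0262), and as the mean of its 3 probe sets it differed by -0.13. Atf3 read 3.65 to 3.95 on all arrays, below the limit for dim genes.

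The feedback genes did not pass. Trib3, a pseudokinase that dampens ATF4, read 7.65 and 8.38 with DMSO and 7.64 and 7.61 with GSI. DMSO replicate 2 stood above the other 3 arrays, which lay close together. The log2 difference of -0.39 (limma, adjusted p = 0.394) became -0.025 without it (adjusted p = 0.927) and -0.76 without DMSO replicate 1 (adjusted p = 0.138). Chac1, which degrades glutathione, read 7.58 and 7.77 with DMSO and 7.60 and 7.21 with GSI, with GSI replicate 2 below the rest (difference -0.27; limma, adjusted p = 0.373). Sesn2, an inhibitor of mTORC1, read 6.40 and 6.42 with DMSO and 6.66 and 6.35 with GSI, with overlapping groups (difference 0.10; limma, adjusted p = 0.713).

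Set beside each other, the synthetases had differences of -0.39 to 0.44 and the stress genes of -0.72 to 1.11. The ends of the stress gene range were its called genes, Cth and Slc7a11. The 13 stress genes not called ran from -0.39 (Trib3) to 0.53 (Ddit3), close to the range of the synthetases. The synthetase median minus that of the stress genes was -0.067 on the log2 scale. That difference turned without DMSO replicate 1 (0.081) and without GSI replicate 1 (0.046). Per array, the synthetases had a median of -0.23 and -0.28 on GSI replicates 1 and 2 against the mean of the DMSO arrays. The stress genes had -0.045 on GSI replicate 1 and -0.33 on GSI replicate 2. Without GSI replicate 2 their median was -0.045, and without DMSO replicate 2 it was -0.025, so their shift from DMSO rested on these arrays, while the synthetase medians were -0.23 and -0.20.

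Arrays of the same group also differed in these genes. All 15 stress genes read higher on the second DMSO array than on the first, by a median log2 difference of 0.15. This held for 44.2% of all genes. With GSI, 13 of the 15 read lower on replicate 2 than on replicate 1, by a median of -0.16, against 53.6% of all genes. The 2 exceptions were Cth and Psph. For the synthetases the counts were 13 of 19 in both cases, with medians of 0.091 and -0.052. The pattern was not particular to the 15 stress genes. Of 20 further ATF4 targets 19 read higher on DMSO replicate 2 and 15 lower on GSI replicate 2, with medians of 0.28 and -0.13. For the 11 synthetases known as ATF4-induced the counts were 10 and 9. Lists not chosen for ATF4 varied. The counts were 8 and 5 of 9 NRF2 targets, 7 and 9 of 12 T lineage markers and 4 and 4 of 4 erythroid markers. They were 2 and 7 of 8 myeloid markers, 3 and 4 of 13 XBP1 and ATF6 targets and 2 and 6 of 16 mitochondrial synthetases. For Asns both replicate differences (0.29 between the DMSO arrays and -0.36 between the GSI arrays) exceeded the treatment difference of -0.17 in size, and the same held for Slc7a5 (0.28 and -0.28, against -0.19). What the stress genes' spread between replicates comes from was not tested.

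**Figure D2:**
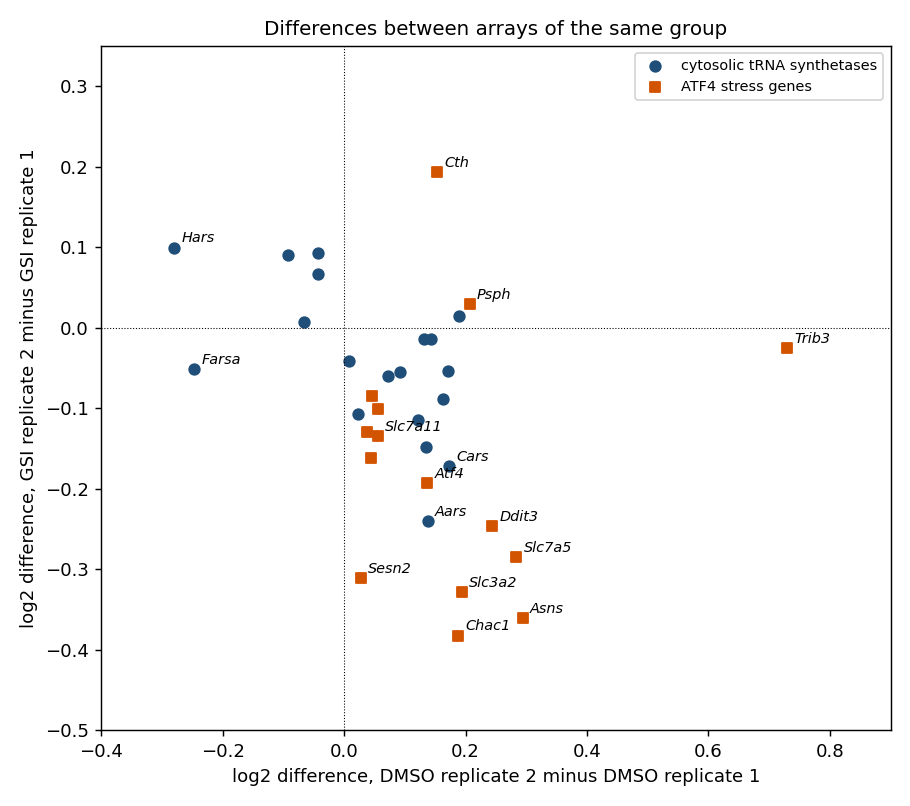
Log2 difference between replicate 2 and replicate 1 within DMSO (x axis) and within GSI (y axis), 1 point per gene, blue circles for the synthetases and orange squares for the stress genes. All 15 squares lie right of 0 and 13 lie below 0, with Trib3 farthest right at 0.73.

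The wider pathway read as follows, with 4.12% of all genes called. Of 11 measured genes of the eIF2 switch, 1 rose and 1 fell. At an unadjusted p under 0.05, 4 of the 11 were lower and 2 higher, against 10.7% and 10.8% of all genes. Eif2ak3, the eIF2 kinase PERK of the endoplasmic reticulum, read 8.60 and 8.75 with DMSO and 9.72 and 9.57 with GSI. It rose 1.96-fold, with both GSI arrays above both DMSO arrays (log2 difference 0.97, SE 0.10; limma, adjusted p = 0.0109; 0.0572 with the replicate block and 0.102 to 0.170 with any 1 array left out). The size of the Eif2ak3 change depended on the setting, with log2 differences of 0.65 to 1.05 over the alternatives. Eif2b3, a subunit of the exchange factor that phosphorylated eIF2 blocks, read 9.54 and 9.29 with DMSO and 8.70 and 8.80 with GSI. It fell 1.59-fold (limma, adjusted p = 0.0403; 0.0724 in the test of every probe set, 0.110 with the replicate block and 0.130 to 0.310 with any 1 array left out).

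Of 20 further ATF4 targets 1 rose, 1 fell and 14 had lower means, against 53% of all genes, with a median of -0.21. At an unadjusted p under 0.05, 6 of the 20 were lower and 2 higher, against 10.7% and 10.8% of all genes. Jdp2, a repressor of the AP-1 family, read 7.83 and 8.19 with DMSO and 8.85 and 8.72 with GSI. It rose 1.71-fold (limma, adjusted p = 0.0455), and missed the threshold in the test of every probe set (0.0778), with the replicate block (0.119), as the mean of its probe sets (a difference of 0.36 in place of 0.77; 0.0939) and with any 1 array left out (0.120 to 0.324). Aldh1l2, a mitochondrial folate enzyme, read 5.21 and 5.73 with DMSO and 4.33 and 4.48 with GSI. It fell 2.10-fold (limma, adjusted p = 0.0382), missing it in the test of every probe set (0.0645), with the replicate block (0.0572) and with any 1 array left out (0.0848 to 0.313). Its GSI arrays lay below the limit for dim genes, so the size of its fold is uncertain.

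Of the lists for other branches of stress, 1 gene in all was called, a share near the 4.12% of all genes. Of 13 XBP1 and ATF6 targets 0 passed limma, and the median was -0.14. At an unadjusted p under 0.05, 3 of the 13 were lower and 2 higher, against 10.7% and 10.8% of all genes. Edem1, which sends misfolded protein for degradation, differed by 0.51 (adjusted p = 0.0608), and Sdf2l1, of a chaperone complex of the endoplasmic reticulum, by -0.60 (adjusted p = 0.0654). Both passed without dim genes, with centred arrays and with the trended prior (adjusted p = 0.00559 to 0.0495). Slc7a11 is also known as a target of the oxidant-sensing factor NRF2. Of 9 other NRF2 targets 1 rose, the quinone reductase gene Nqo1, by 1.54-fold (from 6.59 and 6.62 to 7.36 and 7.11; limma, adjusted p = 0.0437). Nqo1 missed the threshold in the test of every probe set (0.0775), with the replicate block (0.104) and with any 1 array left out (0.118 to 0.275). The median of the 9 was -0.014, with 5 lower and 4 higher means, where 53% of all genes had a lower mean. At an unadjusted p under 0.05, 1 of the 9 was lower and 1 higher, against 10.7% and 10.8% of all genes.

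**Figure D3:**
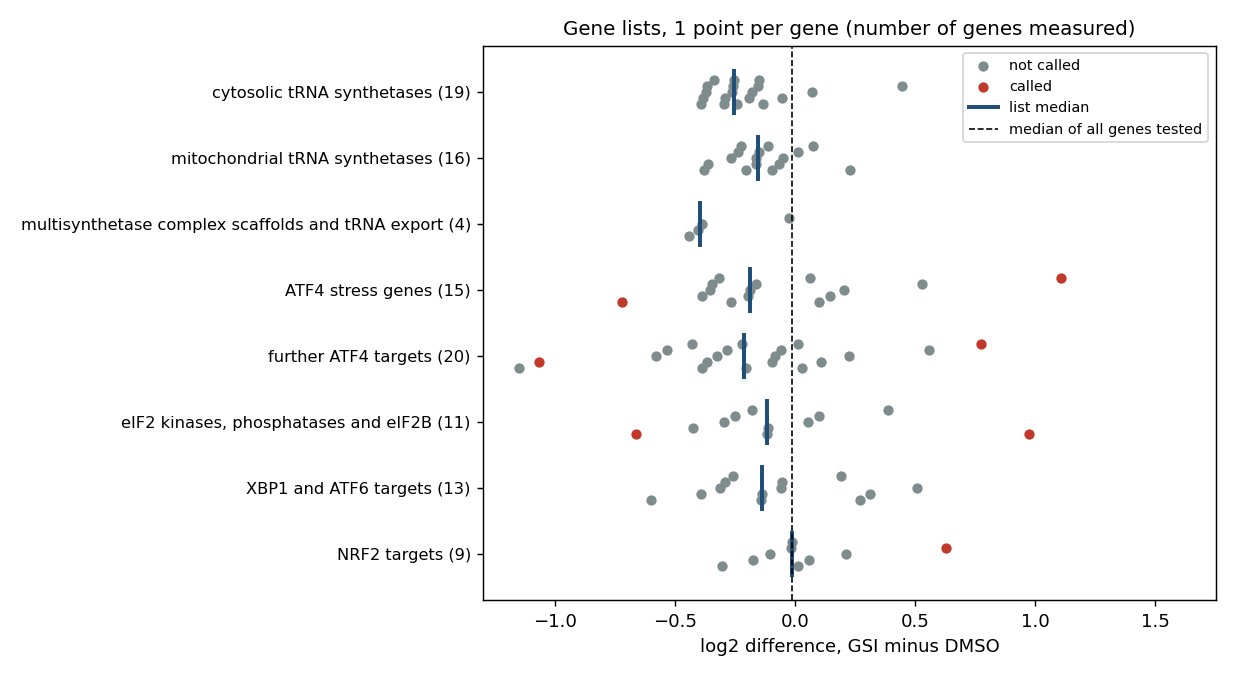
Log2 difference between GSI and DMSO (x axis) for every measured gene of 8 lists, 1 point per gene, red where called; blue bars are list medians and the dashed line is the median of all genes tested, -0.012. The synthetases bunch left of the line, and the 7 called genes are Cth, Slc7a11, Aldh1l2, Jdp2, Eif2b3, Eif2ak3 and Nqo1.

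Probe sets of 1 gene were compared as a check of the values. The 34 genes had 67 probe sets, and 20 genes had more than 1. In 16 of the 20 all probe sets at or above the limit for dim genes pointed the same way, and the exceptions were Atf4, Cbs, Farsa and Sesn2. Farsa differed by -0.26 on its brightest probe set and by -0.069 as the mean of its 4. All 4 Wars probe sets were lower, by -0.39 to -0.60, and all 4 of Farsb, by -0.16 to -0.79. As the mean of its probe sets Farsb passed (-0.43; limma, adjusted p = 0.0453). Nars differed by -0.15 on its brighter probe set and -0.40 on the other, and Aars by -0.057 and -0.29.

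**Figure D4:**
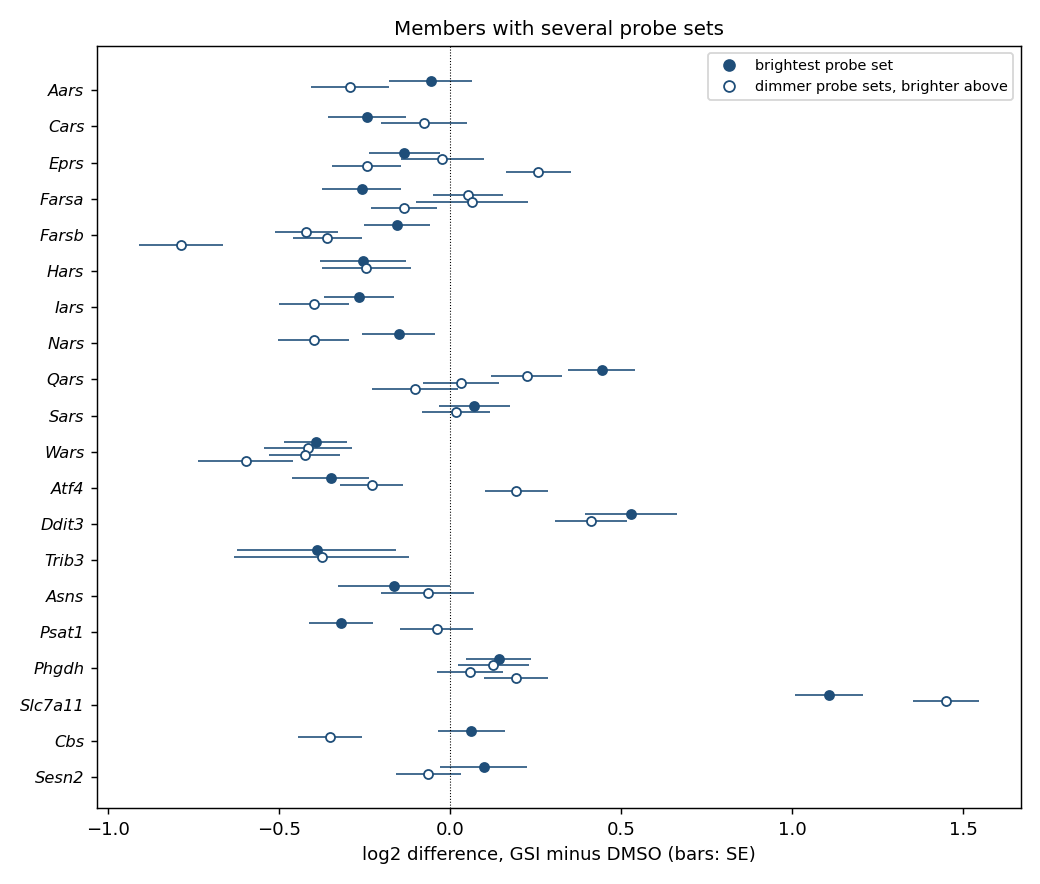
Log2 difference between GSI and DMSO (x axis, bars are SE) for each probe set of the 20 genes with several; filled points are the brightest probe set, which stood for the gene, and open points the dimmer ones. Both Slc7a11 probe sets lie right of 1, and the Wars and Farsb sets all lie left of 0.

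The promoters shown above were set beside these values. RefSeq promoters, 250 bases before to 50 after the start, were found for 25 of the 34 genes. The core TGATGNAA, on either strand, was present for 10 of the 25, 5 synthetases (Aars, Gars, Iars, Tars and Yars) and 5 stress genes (Atf3, Trib3, Chac1, Asns and Slc7a11), against 4.51% of 27025 genes with a promoter in the table and 3.97% of 32851 promoters of that length. Of these 10 genes Slc7a11 rose, the other 9 had lower means and did not pass, and the median log2 difference was -0.23. Among these 9, Atf3 lay below the limit for dim genes, and Aars, Chac1 and Asns had overlapping groups. Of the 15 promoters' genes without a match 8 had lower means and 7 higher, with a median of -0.13. The members for which no promoter was found, Cth and Wars among them, are in neither group, and all of them had lower means. The difference between genes with and without a match was not tested. Genes with the same letters read in both directions: Slc7a11 at 1.11, and Yars at -0.37 with the 8 letters TGATGCAA that Slc7a11 also holds. The E-box CACGTG, which MYC binds, was found for 5 of the 25 (8.09% of genes, 7.15% of all promoters), among them Aars, Farsb, Iars and Tars. TGACNNNGC, the core that NRF2 binds, was found for 7 (14% of genes, 12.4% of promoters) and TGGGAA, the core that the Notch partner RBPJ binds, for 6 (28.3% of genes, 25.6% of promoters), Slc7a11 among the latter. A match is a description of the letters and not of binding.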

How the data were processed

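The deposited values were log2 expression per probe set, made by the authors with RMA (background correction, normalization between arrays and summary of probes), per the submitters' processing notes; its version and settings: not given in the sources used here. The table held 45101 probe sets on 4 arrays; 64 control probe sets were left out. Of the rest 34945 had 1 gene symbol, 932 several and 9160 none; symbols were updated through gene identifiers to RefSeq (GRCm38.p6). The brightest probe set stood for each of 18193 genes. The comparison of GSI and DMSO used limma (version 3.58.1, R 4.3.3) (group as the only term, two-sided, 5.80 total degrees of freedom), with Benjamini-Hochberg adjustment over all genes; the fit was tested on simulated data. SE and 95% intervals are those of the fit. Named were all measured members, up to 4 called genes of each other list (or the 2 with the smallest p), and Myc, Hes1 and Dtx1. All scaffold and export genes and some marker genes were named beyond this rule. Members and lists were chosen with earlier results of these data known. Alternatives were centred arrays, cyclic loess, dim genes left out, every probe set tested, means of probe sets, a trended robust prior, a minimum of 2-fold, leaving out single arrays, and the replicate number as a block. Motifs were searched in RefSeq promoters.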

Additional observations from a re-analysis of the deposited data

How the results depend on the processing

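The median log2 difference of the synthetases, -0.26 as reported, lay between -0.28 and -0.20 with any 1 array left out, and that of the stress genes, -0.19, between -0.33 and -0.025. The difference between both medians turned from -0.067 to 0.081 without DMSO replicate 1 and to 0.046 without GSI replicate 1, and lay between -0.19 and 0.081 over the 4 fits. With 1 array left out, limma called 0 to 6 genes in all (0 to 1 higher, 0 to 5 lower) and 0 members of every list; here a group's single array is taken to have the spread of the opposite group.

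Counts of calls depended on the settings, and the cause was not tested. Over all genes 750 were called (466 higher, 284 lower). This became 1583 (898 and 685) with dim genes left out, 1941 (1042 and 899) with the intensity trend and robust prior (14.4% and 10.7% of the genes tested, the shares to set beside the list counts that follow), 217 (147 and 70) with the replicate block and 177 (111 and 66) with a 2-fold minimum. With centred arrays 479 were lower. Of the synthetases 6 passed with dim genes left out (5 of class I, 1 of class II, 4 of the complex, 2 of the others, 2 of the ATF4-induced), and 8 with the trend and robust prior (6, 2, 5, 3 and 4 in the same order). With centred arrays 1 passed, Wars, and as the mean of probe sets 1, Farsb. Of the stress genes 4 and 6 passed with dim genes left out and with the trend and robust prior (1 and 2 factors and feedback genes, 2 and 3 synthesis genes). As the mean of probe sets 1 factor passed. When every probe set was tested, with a 2-fold minimum or with the block, 1 stress gene and 0 synthesis genes passed. The other lists, with dim genes left out and then with the trend and robust prior, had 1 and 2 mitochondrial synthetases, 3 and 3 scaffold and export genes, 4 and 4 eIF2 genes, 5 and 8 further ATF4 targets and 4 and 5 XBP1 and ATF6 targets. Centred arrays gave 1 scaffold gene, 4 further ATF4 targets and 2 XBP1 and ATF6 targets, and probe set means 1 scaffold gene and 1 XBP1 or ATF6 target. Testing every probe set gave 1 eIF2 gene and 0 further ATF4 and NRF2 targets, the block 0 of each of these 3 lists, and the 2-fold minimum 0, 1 and 0.

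Among the 34 members, differences near 0 changed sign: Aars ran from -0.18 to 0.063 with any 1 array left out, Sars from -0.010 to 0.15, Asns from -0.35 to 0.015, Sesn2 from -0.058 to 0.25 and Cbs from -0.0028 to 0.13, and Cbs was at -0.14 as the mean of its probe sets. The replicate numbers are shared between groups, but nothing says that they mark a pairing. The differences between replicates correlated at 0.085 across genes, and the samples share only a number. With the number as a block Slc7a11 passed (adjusted p = 0.0393) and Cth did not (0.0575). The arrays' number limits the precision, and the level of background under dim probe sets was not analysed here.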
